A study of Mus musculus with 5 samples.

Results

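The 70 genes described here had few counts in the striatum of WT mice and at least 10 in each of the 2 libraries of R6/1 mice. They were selected on their raw read counts: a row was taken when its counts summed to at most 10 over the 3 WT libraries and reached at least 10 in each of the 2 R6/1 libraries. Of the 26369 rows of the table, 75 met these limits. The rows named for Hox, Hist, Pcdh, Irx, Pax, Onecut and Nkx genes, Wt1 and Lmx1b were left out by name, which removed Wt1, Lmx1b, Irx5, Onecut1 and Hoxc4 and left 70. Because these counts chose the genes, the levels below describe them and no test of the genotype is given for any of the 70.

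The series compared total RNA of the striatum, the part of the basal ganglia most affected in Huntington's disease, between WT mice (n = 3 libraries) and R6/1 mice (n = 2 libraries). The transgene of R6/1 mice is exon 1 of the human HD gene, and its CAG tract has a length of 115 per the labels. Mice of both groups had a mixed CBA and C57BL/6 background. No other treatment, allele or agent is given for either group. The sources used here give no age, sex, litter or batch. Whether each library came from its own animal is not stated, so p-values below reflect only how far these libraries differ from each other, a spread that may be technical. In bulk tissue, fewer cells of a type and less RNA per cell cannot be told apart.

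Cells keep the genes of other lineages shut by several means. Polycomb complexes place repressive marks on histones at CpG-rich promoters of developmental regulators, and DNA methylation silences many germ-line, imprinted and transposon-derived transcripts. Adult striatal neurons therefore contain little or no RNA of many transcription factors that pattern the embryo, and RNA from such loci in adult brain is usually close to the limit of detection. Non-coding RNAs often begin at the same CpG-rich promoters as a neighbouring coding gene and run in the opposite direction. Total RNA made without selection for a poly(A) tail also contains introns, so small-RNA genes that lie inside an intron can be counted through the unspliced RNA of their host.

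Library totals were 19630036 to 34379064 counts, and both R6/1 libraries were deeper than all WT libraries, so depth and genotype cannot be told apart. Summed over the group the totals were close, at 65639344 counts for WT and 64250370 for R6/1. In CPM, the raw count scaled by the library total, 1 read was worth 0.0291 to 0.0509. All 9 tested markers of the medium spiny neuron, the principal striatal neuron, fell in R6/1, beside 12.8% of all tested genes (edgeR quasi-likelihood test with Benjamini-Hochberg adjustment), and their summed level was 6002 to 6870 CPM in WT and 1795 to 1841 CPM in R6/1. The tissue label therefore had its defining markers in all 5 libraries. The libraries of WT replicates 1 and 2 stood apart by their choroid plexus markers, which summed to 3571 and 3482 CPM against 96.6 CPM in WT replicate 3 and 136 and 50.4 CPM in the R6/1 libraries. The selection could not take a gene with that pattern, and the summed levels of the 70 genes were 6.03, 7.54 and 6.53 CPM in WT replicates 1, 2 and 3 and 45.9 and 55.9 CPM in R6/1 replicates 1 and 2.

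**Figure D1:**
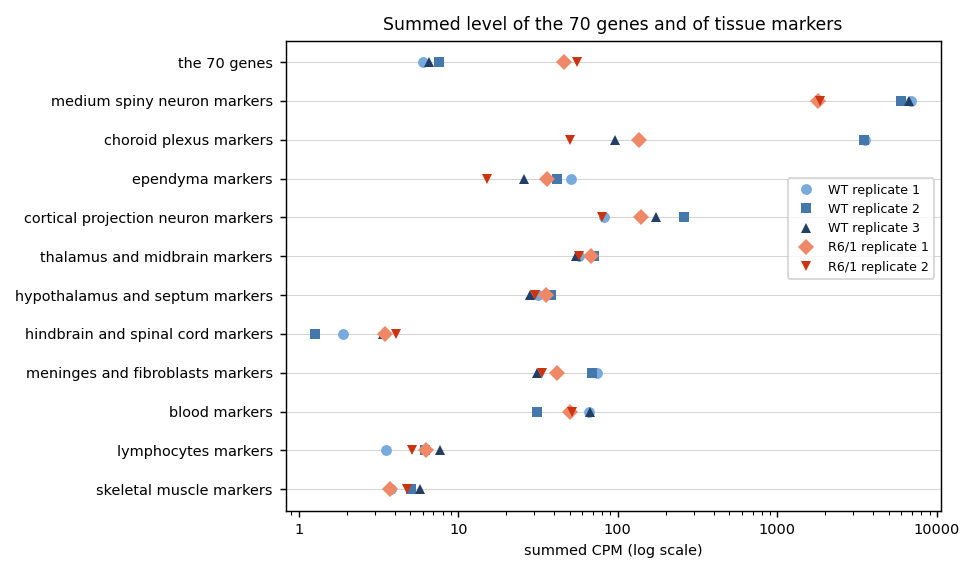
Summed CPM of the 70 genes and of 11 lists of tissue markers, on a log axis, with 1 symbol per library. Choroid plexus markers separate WT replicates 1 and 2 from the other libraries. The 70 genes lie at 6.03 to 7.54 CPM in WT and at 45.9 and 55.9 CPM in R6/1, levels that the selection bounds.

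Most of the gained RNA was scarce. The median sum was 7 counts over the 3 WT libraries and 28 counts over the 2 R6/1 libraries. Most of the genes were not absent from WT: 41 of the 70 had counts in all 3 WT libraries and 4 had none. In CPM, 39 of the 70 were less than 5-fold higher in R6/1. In R6/1, 62 of the 70 genes had between 20 and 50 counts. Another 5 genes had 51 to 100, and only C130021I20Rik, Skor1 and Pou4f1 had more than 100. These 3 genes held 1073 of the 3249 R6/1 counts of all 70 genes, or 33.0%, whereas the 70 genes together had 437 counts in WT. As a group, the genes had a median log2 ratio of R6/1 over WT of 1.81 on the log2(CPM + 0.05) scale, beside 0.05 for all 26369 rows. Without a pseudocount, and with the 4 genes that had no WT count set to the floor of 3 counts over the WT group, the median was 2.22. Per kb of gene length, in the authors' normalized values, the median of the 70 genes was 1.68 in WT and 9.80 in R6/1. That level in R6/1 was low in the tissue as a whole: the median gene of the 70 lay above 34.7% of all rows, and the highest, the microRNA row Mir343, above 58.2%.

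**Figure D2:**
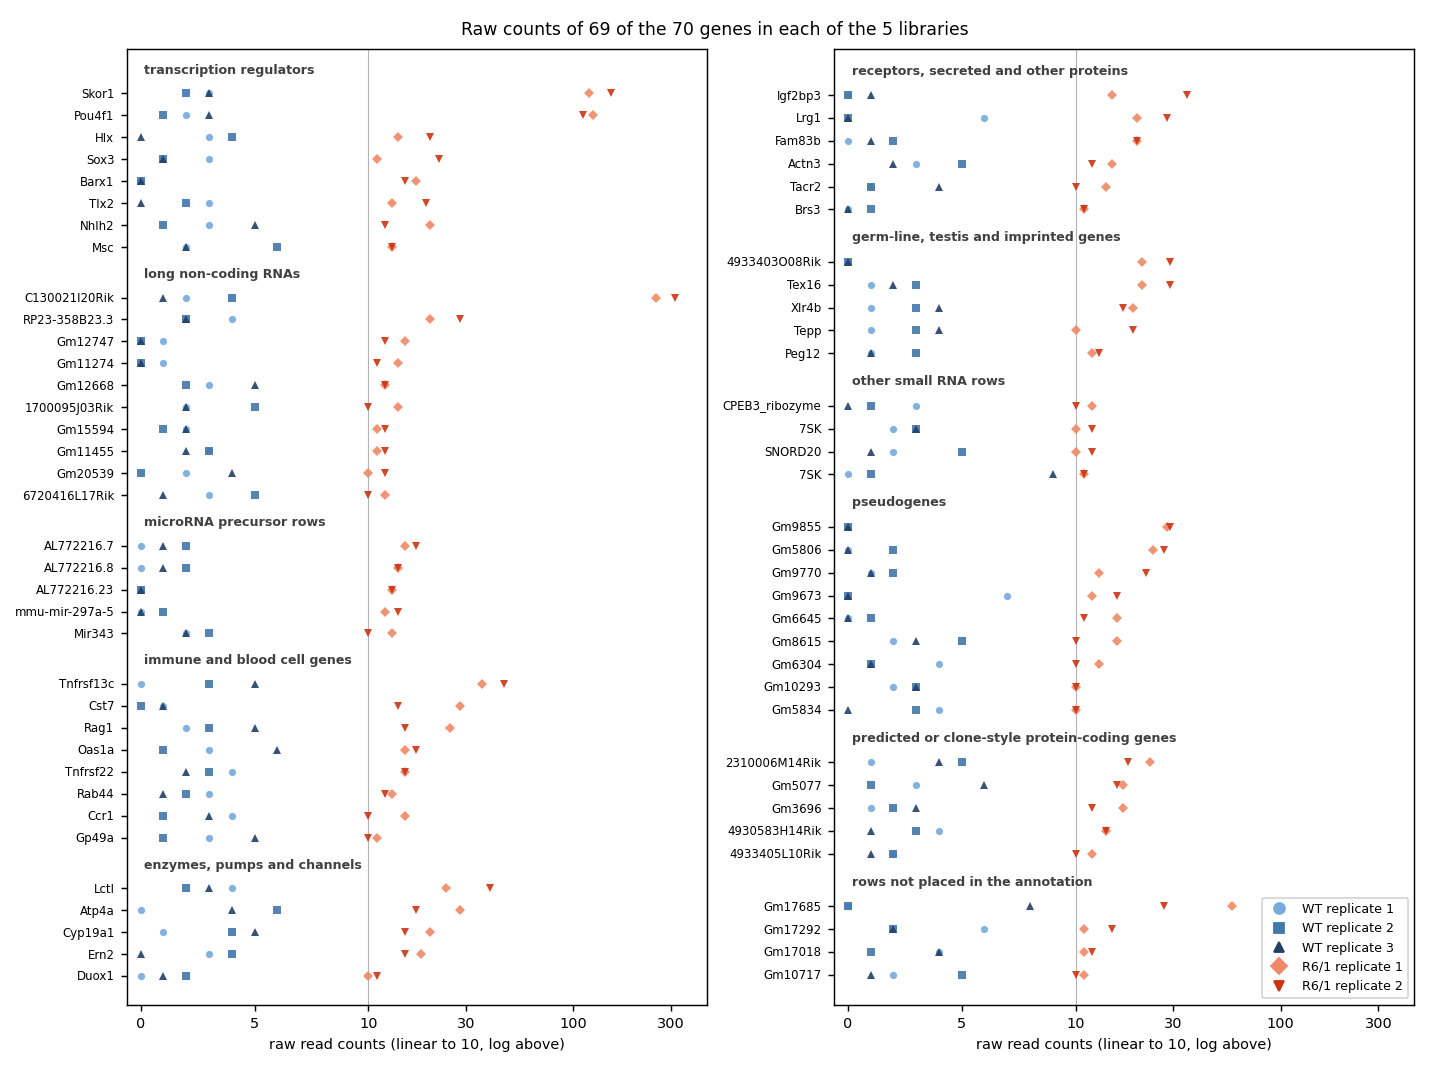
Raw counts of 69 of the 70 genes in each library, grouped by role, on an axis that is linear to 10 and logarithmic above. Most genes sit just right of the limit of 10 in R6/1, and C130021I20Rik, Skor1 and Pou4f1 stand apart above 100 counts in both R6/1 libraries.

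The promoters of the 3 most abundant genes are shown because of their counts, and that of Barx1 because it had no WT count among the regulators of transcription. CpG content is a property that the selection did not use. Sequences are from RefSeq, build GRCm38.p6, 5′ to 3′ on the strand of the gene, in lower case with each CpG dinucleotide in capitals, and run over the 250 bases before the listed start. The files were made on build mm9, so the positions belong to the RefSeq table alone. The C130021I20Rik transcript starts on the plus strand of chromosome 2 and the Lmx1b transcript on the minus strand, and the stretch shown is the 94 bases between both listed starts, chr2:33641099-33641192 on the plus strand. Skor1 is on the minus strand at chr9:63148962-63149211, Pou4f1 on the minus strand at chr14:104468000-104468249 and Barx1 on the plus strand at chr13:48662786-48663035. The promoter of Tnfrsf13c, an immune receptor gene, on the minus strand at chr15:82224381-82224630, is shown for contrast.
Lmx1b to C130021I20Rik: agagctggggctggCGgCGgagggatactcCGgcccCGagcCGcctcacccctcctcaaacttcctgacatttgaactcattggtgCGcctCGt
Skor1: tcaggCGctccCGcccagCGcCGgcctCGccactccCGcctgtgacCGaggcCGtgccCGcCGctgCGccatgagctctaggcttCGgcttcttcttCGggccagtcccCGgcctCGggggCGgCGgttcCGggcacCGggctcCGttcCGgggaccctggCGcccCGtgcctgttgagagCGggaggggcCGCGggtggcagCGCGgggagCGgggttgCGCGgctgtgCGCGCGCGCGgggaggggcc
Pou4f1: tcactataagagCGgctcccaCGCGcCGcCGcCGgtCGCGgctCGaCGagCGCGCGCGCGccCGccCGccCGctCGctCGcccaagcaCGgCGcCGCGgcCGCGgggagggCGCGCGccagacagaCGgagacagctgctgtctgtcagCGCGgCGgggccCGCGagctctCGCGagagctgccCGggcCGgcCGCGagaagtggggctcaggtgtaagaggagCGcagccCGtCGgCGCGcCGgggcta
Barx1: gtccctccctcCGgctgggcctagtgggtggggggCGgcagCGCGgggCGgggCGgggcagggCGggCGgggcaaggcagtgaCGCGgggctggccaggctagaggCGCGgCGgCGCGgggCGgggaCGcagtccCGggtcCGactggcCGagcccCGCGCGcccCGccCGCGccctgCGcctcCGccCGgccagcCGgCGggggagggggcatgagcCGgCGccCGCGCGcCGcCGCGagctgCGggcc
Tnfrsf13c: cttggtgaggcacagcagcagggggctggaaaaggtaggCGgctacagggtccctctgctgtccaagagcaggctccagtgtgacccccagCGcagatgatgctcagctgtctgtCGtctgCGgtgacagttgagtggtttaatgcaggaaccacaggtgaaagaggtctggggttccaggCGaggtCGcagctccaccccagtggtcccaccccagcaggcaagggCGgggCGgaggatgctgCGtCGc

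The window of Pou4f1 held 47 CpG dinucleotides, that of Barx1 40 and that of Skor1 36. Over 27025 promoters of the same length the median was 6, with quartiles of 2 and 16, and these 3 windows had more CpG than 99.8%, 98.7% and 97.5% of them. The whole 250 bases before C130021I20Rik held 28, more than 92.7% of promoters, and 7 of these lay in the 94 bases shown. The rest of that window lies past the listed start of Lmx1b, on the side of the Lmx1b transcript. Tnfrsf13c had 10 CpG, more than 61.8% of promoters, Cst7 had 4 and Rag1 had 3. The promoters of these immune genes were thus poorer in CpG than those of Skor1, Pou4f1 and Barx1. Windows above the upper quartile were not confined to regulators of development, since Fam83b held 23, Igf2bp3 21 and the predicted gene Gm3696 18. Not every regulator of development had a CpG-rich window, since Hlx held 11 and Nhlh2 held 2. The letters GGGCGG or CCGCCC, the GC box read on either strand, were counted without matches that overlap an earlier one. They occurred 6 times before Barx1, 3 times before C130021I20Rik, 2 times before Skor1 and once each before Pou4f1 and Tnfrsf13c, and 32.9% of all promoters held at least 1. Promoters were matched for 33 of the 70 genes, or 47.1%, below the 80% needed for a statement on the group, so no share of CpG-rich promoters is given.

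Of the 8 regulators of transcription, Skor1 and Pou4f1 had the largest counts. Skor1, a co-repressor known from spinal dorsal horn interneurons and cerebellar Purkinje cells, had 3, 2 and 3 counts in WT replicates 1, 2 and 3 and 119 and 152 in R6/1 replicates 1 and 2. Its ratio of R6/1 over WT CPM was 34.6, with a 95% exact counting interval of 17.3 to 81.0. Pou4f1, the POU homeodomain factor Brn3a of sensory neurons and the habenula, had 2, 1 and 3 counts in WT and 124 and 112 in R6/1. Its ratio was 40.2, with a counting interval of 18.2 to 111. Both genes were thus at a handful of reads in each WT library and above 100 reads in each R6/1 library.

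The other 6 regulators were counted much more thinly. Barx1, a homeobox gene of stomach and facial mesenchyme, had no count in any WT library and 17 and 15 in R6/1 replicates 1 and 2. Against a floor of 3 counts over the WT group, Barx1 was at least 10.9-fold higher in R6/1. Sox3, a SoxB1 factor of neural progenitors, had 3, 1 and 1 counts in WT and 11 and 22 in R6/1, for a ratio of 6.74 (2.62 to 22.1). Tlx2, a homeobox gene of enteric neurons, had 3, 2 and 0 counts in WT and 13 and 19 in R6/1. Hlx, a homeobox gene needed for liver and gut growth, had 3, 4 and 0 counts in WT and 14 and 20 in R6/1. Among these genes Sox3 differed most between the R6/1 libraries, with a CPM in replicate 1 that was 0.434 times that of replicate 2. The basic helix-loop-helix genes Nhlh2 and Msc, the former active in hypothalamic neurons and the latter a repressor of muscle differentiation, were the lowest of the 8 in ratio, at 3.63 (1.69 to 8.65) and 2.66 (1.24 to 6.17). Msc had 2, 6 and 2 counts in WT, exactly at the limit of the selection.

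C130021I20Rik, a long non-coding RNA on chromosome 2, was the most abundant of the 70 genes. It had 2, 4 and 1 counts in WT replicates 1, 2 and 3 and 252 and 314 in R6/1 replicates 1 and 2, so that its ratio was 82.6 (counting interval 39.8 to 206). In R6/1 it reached 8.92 ± 2.25 CPM (SD, n = 2) against 0.111 ± 0.0829 CPM in WT (SD, n = 3). Its divergent neighbour Lmx1b, a LIM homeobox gene of midbrain dopamine, serotonin and dorsal spinal neurons that met the count limits but was left out by name, had 1, 0 and 2 counts in WT and 126 and 102 in R6/1. Both transcripts that start at the ends of the stretch shown above were therefore counted in R6/1 and nearly absent in WT. On GRCm38 the listed starts lie apart and the transcripts run away from each other. The strand setting and the gene models of the counting are not given, and whether both rows share reads was not tested.

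The remaining 9 long non-coding RNAs had 22 to 48 counts in R6/1. RP23-358B23.3, a non-coding RNA of the sense-overlapping class, had 4, 2 and 2 counts in WT and 20 and 28 in R6/1. The next gene along the chromosome, Cdca2, a chromatin-bound phosphatase regulator of dividing cells, was chosen after its values were seen. Cdca2 rose from 1.11 ± 0.229 CPM in WT (SD, n = 3) to 4.18 ± 0.536 CPM in R6/1 (SD, n = 2), with a log2 fold change of 1.91 and an SE of 0.24 (edgeR quasi-likelihood test, Benjamini-Hochberg adjusted p = 0.00276). Gm20539 overlaps BC061194 and had 2, 0 and 4 counts in WT and 10 and 12 in R6/1. BC061194, chosen in the same way, rose from 1.15 ± 0.649 to 5.59 ± 0.884 CPM with a log2 fold change of 2.29 and an SE of 0.41 (edgeR adjusted p = 0.00948). Without R6/1 replicate 2 its edgeR adjusted p was 0.0734. The row 6720416L17Rik, named Haglr in the newer annotation and lying in the Hoxd cluster, had 3, 5 and 1 counts in WT and 12 and 10 in R6/1. Gm12747 and Gm11274 each had a single WT count.

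The microRNA precursor rows numbered 5, and 3 of them lie inside Sfmbt2, a Polycomb-group gene with a large cluster of microRNAs in an intron. AL772216.8 had 0, 2 and 1 counts in WT replicates 1, 2 and 3 and 14 in each R6/1 library. AL772216.23 had none in WT and 13 in each R6/1 library, at least 8.85-fold higher against the floor of 3 counts over the WT group. The row mmu-mir-297a-5, named Mir297a-2 in the newer annotation, had 0, 1 and 0 counts in WT and 12 and 14 in R6/1. A further row, AL772216.7, carries the same clone prefix but has no place in the annotation used, and had 0, 2 and 1 counts in WT and 15 and 17 in R6/1.

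These rows were the most counted of a larger set that moved the same way. The table holds 52 rows inside Sfmbt2, and all 52 had more counts in the R6/1 group than in the WT group. Of these, 22 had no WT count. Summed over the 52 rows the counts were 18, 19 and 12 in WT and 287 and 257 in R6/1, 11.3 times as high in CPM in R6/1 (counting interval 8.46 to 15.5). Without the 3 selected rows the ratio was 10.5, from 45 counts in WT and 464 in R6/1. Among the other 49 rows, 15 of the Mir669 family had 20 counts in WT and 175 in R6/1, and 14 of the Mir466 family had 6 and 72. The near-identical copies of these families can share reads, so the split among single rows is uncertain.

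**Figure D3:**
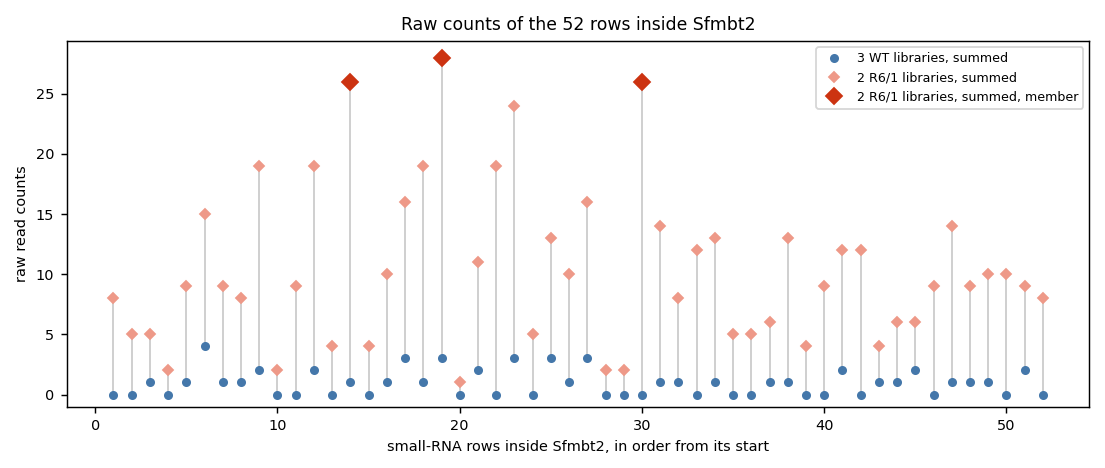
Raw counts of the 52 rows inside Sfmbt2 in order from its start, as the sum of the WT libraries and the sum of the R6/1 libraries, joined by a line for each row. Every row is higher in R6/1, and the 3 selected rows, at 26 to 28 counts, are the highest of the set.

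Sfmbt2 itself, which is no member and was chosen after its values were seen, had 95, 112 and 95 counts in WT and 1181 and 1050 in R6/1. It rose from 4.81 ± 0.940 CPM in WT (SD, n = 3) to 33.1 ± 0.504 CPM in R6/1 (SD, n = 2), with a log2 fold change of 2.79 and an SE of 0.16 (edgeR quasi-likelihood test, Benjamini-Hochberg adjusted p = 0.000121). The groups did not overlap. Reads of the microRNA rows and of unspliced Sfmbt2 RNA cannot be told apart in these libraries, and the rows do not measure mature microRNAs.

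Mir343 was the other microRNA row. It had 2, 3 and 2 counts in WT and 13 and 10 in R6/1, a ratio of 3.36 (1.39 to 9.26). Its host gene Ercc2, a DNA repair helicase, had 1571 counts in WT and 1663 in R6/1. The RefSeq mature sequence, at chr7:19386688-19386707 on the plus strand of GRCm38.p6, is shown with its seed, bases 2 to 8, in capitals.
mmu-miR-343: uCUCCCUUcaugugcccaga
The row is 0.075 kb long and had the highest level per kb of the 70 genes from 23 R6/1 counts. The 4 other small-RNA rows, a pair of rows named 7SK, SNORD20 and CPEB3_ribozyme, each had 22 counts in R6/1. One of the 7SK rows had the lowest ratio of all 70 genes, 2.25 (1.02 to 5.32), with 0, 1 and 9 counts in WT.

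Genes of immune and blood cells numbered 8. Tnfrsf13c, the receptor for the B cell survival factor BAFF, had 0, 3 and 5 counts in WT replicates 1, 2 and 3 and 36 and 46 in R6/1 replicates 1 and 2, for a ratio of 10.5 (5.07 to 25.1). Cst7, cystatin F of lysosomes in immune cells including activated microglia, had 1, 0 and 1 counts in WT and 28 and 14 in R6/1, for a ratio of 21.5 (5.58 to 183). Rag1, the recombinase of lymphocyte receptor genes, had 2, 3 and 5 counts in WT and 25 and 15 in R6/1. Oas1a, an interferon-induced enzyme that senses double-stranded RNA, had 3, 1 and 6 counts in WT and 15 and 17 in R6/1. The TRAIL decoy receptor Tnfrsf22, the GTPase Rab44, the chemokine receptor Ccr1 and Gp49a followed with 21 to 30 R6/1 counts and ratios of 2.38 to 4.26.

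Markers of lymphocytes and blood were measured beside these 8 genes. The 7 lymphocyte markers found summed to 3.51 to 7.66 CPM in WT and to 6.25 and 5.16 CPM in R6/1, and Cd3g, Cd79a and Trbc1 had at most 3 counts in every library. Blood markers summed to 31.3 to 67.3 CPM in WT and to 50.3 and 51.7 CPM in R6/1. For both lists the WT range enclosed both R6/1 values. Most of the lymphocyte sum was Ighm and most of the blood sum was the globin gene Hbb-b1 in every library, so each sum largely followed 1 gene. S100a8 had 6, 6 and 1 counts in WT and 42 and 8 in R6/1 and was not tested, and S100a9 had 6, 5 and 4 and 79 and 14. Of 6 tested blood markers 1, S100a9 of neutrophils, rose, and the 1 lymphocyte marker tested did not pass (edgeR). S100a9 lost the call when any library but R6/1 replicate 2 was left out, with edgeR adjusted p of 0.0640 to 0.409.

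The 5 enzymes, pumps and channels are best known outside the brain. Lctl, a lactase-like protein of the klotho family, had 4, 2 and 3 counts in WT and 24 and 39 in R6/1, a ratio of 7.15 (3.54 to 16.4). Atp4a, the catalytic subunit of the gastric proton pump, had 0, 6 and 4 counts in WT and 28 and 17 in R6/1. Cyp19a1, the aromatase that makes oestrogens and is also active in some brain neurons, had 1, 4 and 5 counts in WT and 20 and 15 in R6/1. Ern2, a sensor of unfolded protein in gut epithelium, had 3, 4 and 0 counts in WT and 18 and 15 in R6/1. Duox1, an NADPH oxidase of airway and thyroid, had the fewest R6/1 counts of the 5, 10 and 11 beside 0, 2 and 1 in WT.

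Among receptors, secreted and other proteins, Igf2bp3 had the largest ratio. This RNA-binding protein of embryonic and tumour cells had 0, 0 and 1 counts in WT and 15 and 35 in R6/1, a ratio of 51.1 whose counting interval runs from 8.76 to 2057 because it rests on 1 WT count. It was also the gene that differed most between the R6/1 libraries, with a CPM in replicate 1 that was 0.372 times that of replicate 2. Lrg1, a secreted leucine-rich glycoprotein, had 6, 0 and 0 counts in WT and 20 and 28 in R6/1, so that its WT counts came from replicate 1 alone. Fam83b, an adaptor in growth factor signalling, had 0, 2 and 1 counts in WT and 20 in each R6/1 library. Brs3, a bombesin-like receptor of hypothalamic neurons, had 0, 1 and 0 counts in WT and 11 in each R6/1 library. The neurokinin receptor gene Tacr2 and the muscle actinin gene Actn3 had 24 and 27 R6/1 counts.

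Markers of other brain regions were measured beside these genes. Those of hypothalamus and septum summed to 28.3 to 38.2 CPM in WT and to 35.5 and 30.1 CPM in R6/1, inside the WT range. Of these 10 markers, 4 were tested and none passed by edgeR or DESeq2, with 1 higher and 1 lower at an unadjusted edgeR p below 0.05. Zic1 and Trpc4 made up most of this sum, with log2 fold changes of -0.60 and 0.44. The hypothalamic peptide genes Avp, Oxt, Hcrt, Pmch and Agrp had 0 to 8 counts in each library, but other peptide genes of the list had more. Trh had 51, 43 and 58 counts in WT replicates 1, 2 and 3 and 65 and 52 in R6/1 replicates 1 and 2. Pomc had 20, 22 and 10 counts in WT and 25 and 26 in R6/1. The part of hypothalamic tissue in the counts of Brs3 and Nhlh2 was not tested. The thalamus and midbrain list lay inside its WT range as well, and none of its 7 tested markers passed by either tool or at an unadjusted p below 0.05. Hindbrain and spinal cord markers were scarce, at 1.27 to 3.40 CPM in WT and 3.46 and 4.08 CPM in R6/1, and Slc6a4, Fev and Dbh had at most 3 counts in every library. Of its 3 tested markers 1 rose, En2, with a log2 fold change of 1.16 and an SE of 0.33 (edgeR adjusted p = 0.0451), but it lost the call under DESeq2 (adjusted p = 0.0709) and whenever any 1 library was left out, with edgeR adjusted p of 0.0609 to 0.25. The other 2 tested markers, Slc6a5 and Tph2, did not pass, with log2 fold changes of 0.77 and -0.02. Both R6/1 sums of this list lay above the WT sums, but WT replicate 3, at 3.40 CPM, was close to R6/1 replicate 1, at 3.46 CPM. The part of such tissue in the counts of the 70 genes was not tested. Markers of cortical projection neurons overlapped between the groups, with 0 of 8 called by edgeR, by DESeq2 or at an unadjusted p. Of the skeletal muscle markers, a list that also holds Actn3, Mylpf rose and Acta1 fell by edgeR, and the summed levels overlapped. DESeq2 did not call Mylpf (adjusted p = 0.0594), and edgeR lost it when any library but WT replicate 2 was left out (adjusted p of 0.0746 to 0.187). It lost Acta1 without WT replicate 3, R6/1 replicate 1 or R6/1 replicate 2 (adjusted p of 0.0980 to 0.216), and with library totals alone its adjusted p was 0.0505.

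The 5 germ-line, testis and imprinted genes included neighbours on the X chromosome. The gene 4933403O08Rik had no WT count and 21 and 29 counts in R6/1, at least 17.0-fold higher against the floor of 3 counts over the WT group. Tex16, a testis-expressed gene close to it on the X chromosome, had 1, 3 and 2 counts in WT and 21 and 29 in R6/1, for a ratio of 8.51 (3.65 to 24.3). Xlr4b, of an X-linked family with imprinted members, had 1, 3 and 4 counts in WT and 19 and 17 in R6/1. Tepp, a gene of testis and prostate, had 10 and 19 R6/1 counts, and Peg12, a paternally expressed imprinted gene, had 12 and 13. Reads of the Xlr4 family can be split among near-identical copies, so the value of Xlr4b is uncertain.

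The other rows were pseudogenes, predicted genes and rows without a place in the annotation. The processed pseudogene Gm9855 had no WT count and 28 and 29 counts in R6/1, at least 19.4-fold higher against the same floor. Gm5806, annotated as a pseudogene of Tdg, had 0, 2 and 0 counts in WT and 24 and 27 in R6/1. Gm17685 had the next highest R6/1 counts after the 3 genes above 100, 58 and 27, and its 8 WT counts all came from replicate 3. It was the gene with the largest excess of R6/1 replicate 1 over replicate 2, 1.87-fold in CPM. Processed pseudogenes share sequence with their parent genes, so their counts are uncertain.

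The R6/1 libraries gave similar levels for most of the genes. The CPM of replicate 1 was 0.372 to 1.87 times that of replicate 2, with a median of 0.869, and 67 of the 70 genes lay within 2-fold. By CPM, 22 genes were higher in replicate 1 and 48 in replicate 2. Because each gene had to reach 10 counts in both libraries, this range was limited by the selection.

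**Figure D4:**
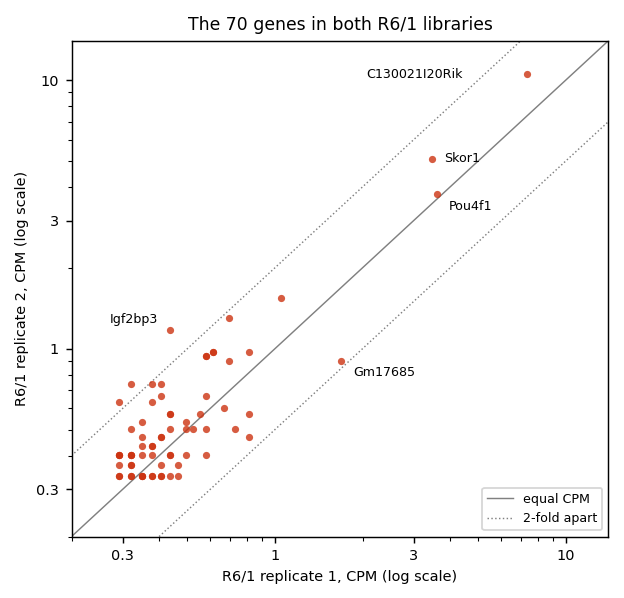
CPM of each of the 70 genes in R6/1 replicate 2 against R6/1 replicate 1, on log axes, with lines at equal CPM and at 2-fold. All but 3 points lie within the 2-fold lines, and C130021I20Rik, Skor1 and Pou4f1 are the highest in both libraries.

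The rows nearest the limits show how gradual the selection was. Among the members, 12 had exactly 10 WT counts and 18 had exactly 10 counts in the lower R6/1 library. Actn3 was just inside, with 3, 5 and 2 counts in WT and 15 and 12 in R6/1, and Tmem30b just outside, with 4, 3 and 4 counts in WT and 52 and 28 in R6/1. On the other limit, Gp49a was just inside with 11 and 10 R6/1 counts and Slc12a1 just outside with 14 and 9. Another 95 rows had 11 to 15 WT counts with at least 10 in each R6/1 library, and 67 rows had 8 or 9 counts in the lower R6/1 library with at most 10 in WT. The 70 genes were 0.944% of the 7414 rows with at most 10 WT counts. The mirrored selection, at most 10 counts over both R6/1 libraries and at least 10 in each WT library, took 42 rows. After every library was scaled to the smallest total, the selection took 18 rows, 16 of them among the 70, and the mirrored selection took 65. The order of the gained and lost numbers thus reversed with scaling. Their limits are also unlike, because the 10 counts are allowed over 3 WT libraries in the selection and over 2 R6/1 libraries in the mirrored selection. The numbers therefore do not compare gain with loss.

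**Figure D5:**
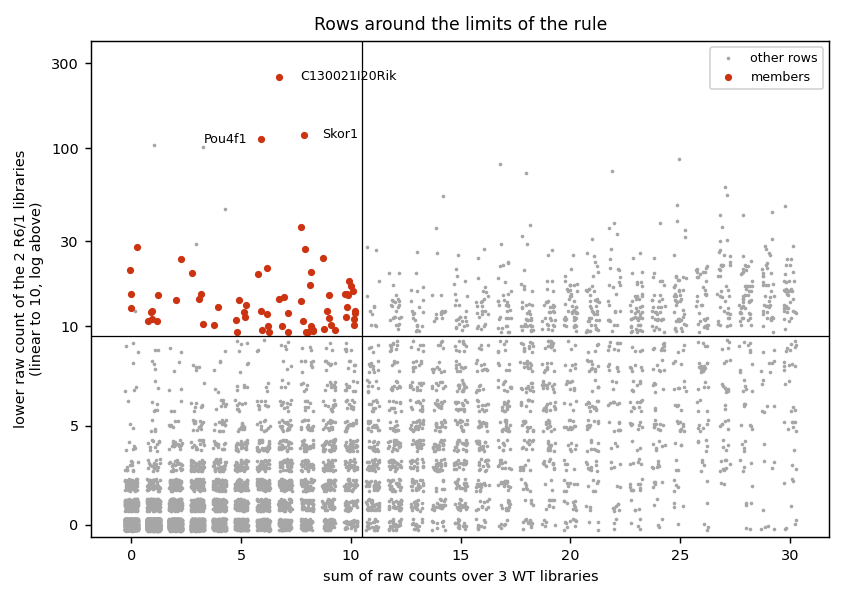
Lower raw count of the 2 R6/1 libraries against the sum of raw counts over the 3 WT libraries, for rows with at most 30 WT counts, with small random shifts so that points do not hide each other. Black lines mark the limits, the 70 genes fill the upper left field without a gap to the rows around them, and grey points in that field are the rows left out by name.

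In the fit across the series, edgeR called 3882 of 17202 tested genes, 22.6%, of which 1672 or 9.72% of the tested genes were higher in R6/1 (quasi-likelihood test, Benjamini-Hochberg adjusted p below 0.05). With library totals alone as the scaling it called 3237 higher and 1694 lower in place of 1672 and 2210, and the median log2 fold change of all genes moved from -0.01 to 0.11. Of the 70 genes, 26 passed the filter on low counts and 19 were called higher, and nothing is read from this number because the selection used the same counts. The authors' deposited table gives an adjusted p below 0.05 for 33 of the 70 genes, beside 10.1% of all its rows that were so called and higher in R6/1. Its log2 fold changes for the 70 genes run from 0.29 to 4.54, and Barx1, with no WT count, is listed there at 1.99.

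By position, 63 of the 70 genes were placed in the newer annotation, on 17 chromosomes, and 37 of them were protein-coding. Chromosome 2 held 10 of the 63, or 15.9%, beside 12.7% of the placed rows with at most 10 WT counts. Of these 10, 3 are the microRNA rows inside Sfmbt2, so they stand for a single locus. The X chromosome held 7, or 11.1%, beside 7.98% of such rows. Of the placed genes, 24 overlapped another row of the table, 10 of them on the same strand, and such rows can share reads. Of the 80 tested genes next to a member, 12 or 15% were higher in R6/1 and 10 were lower by edgeR, beside the 9.72% that were higher among all tested genes. One of the 12 was Lmx1b, which met the count limits itself.

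RNA of genes of the Polycomb complexes, DNA methylation and heterochromatin was counted in both groups. Whether their products act at the loci of the selected genes was not tested. Of 33 genes of the Polycomb complexes, 8 rose and 2 fell, while 23 did not pass. Among all tested genes 9.72% rose and 12.8% fell. Their median log2 fold change was 0.09, beside -0.01 for all tested genes. Ezh2, which methylates histone H3, fell from 35.6 ± 1.53 CPM in WT (SD, n = 3) to 22.3 ± 4.44 CPM in R6/1 (SD, n = 2), with a log2 fold change of -0.68 and an SE of 0.13 (edgeR adjusted p = 0.0121), and without R6/1 replicate 2 its edgeR adjusted p was 0.0665. The number that rose was 13 with library totals alone, 5 without WT replicate 1, 4 without WT replicate 3, 2 without R6/1 replicate 1 and 1 without R6/1 replicate 2, where none fell. Of 21 tested genes of DNA methylation and heterochromatin, 6 rose and none fell by edgeR, beside the 9.72% that rose among all tested genes. DESeq2 gave 7 and 0, and the median log2 fold change was 0.19. At an unadjusted edgeR p below 0.05, 10 were higher and 1 was lower, and with library totals alone 11 rose. That list gave 3 rises without WT replicate 1 and 1 each without WT replicate 3, R6/1 replicate 1 or R6/1 replicate 2. Sfmbt2 was not part of the Polycomb list.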

How the data were processed

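RNA-seq counts of 5 mouse striatum libraries (3 WT, 2 R6/1) were analysed. The authors deposited a table of raw read counts by gene, as its header says. The table also holds a signal the authors made by dividing counts by a size factor per library and this signal for each kb of a gene, per the file headers. The authors' own comparison is there as log2 fold changes with p-values, per the file headers. Per the submitters' processing notes the tools were TopHat 1.4.1, HTSeq 0.5.4p3, CASAVA 1.8.2 and DESeq2 1.0.19 and the build was mm9, and the labels' protocols describe strand-specific libraries of RNA depleted of ribosomal RNA, made with random primers and PCR. The sources used here do not give the Ensembl release, the strand setting or how reads with several matches were counted.

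CPM was computed from the raw counts and library totals. Ratios are of summed counts per summed totals, with exact Clopper-Pearson intervals at the 95% level. A group with no count was set to a floor of 3 counts. These intervals and floors hold counting error alone, because PCR can copy a molecule several times. They hold no spread between libraries, and for the members they rest on the counts that chose the genes. Genes that are no member were tested with edgeR 4.0.16 in R 4.3.3 (TMM, filterByExpr, quasi-likelihood F test, genotype alone, Benjamini-Hochberg below 0.05), and their CPM values are TMM-normalized. The SE is implied by the F statistic. Alternatives were DESeq2 1.42.0, other scalings, no filter on low counts, each library left out and other limits of the selection.

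The members, gene lists and roles were chosen with earlier results of these data known. Members are named by a rule: the 25 highest R6/1 CPM with a symbol that is not predicted, up to 4 per role, the 3 highest predicted symbols, up to 6 with no WT count and the 3 nearest to each limit. Other members are named to complete a role. Some genes that the rule takes are left unreported here. Names, biotypes and neighbours come from GENCODE M21 on GRCm38 by Ensembl identifier, without its coordinates. Choroid plexus markers fell for 5 of 10 tested, but WT libraries differed widely among themselves. Their sum was 3571 and 3482 CPM in WT replicates 1 and 2. WT replicate 3, at 96.6 CPM, lay between R6/1 replicates 1 and 2, at 136 and 50.4 CPM. Of the lists, the ependyma and meninges markers are shown in the plot of marker levels only: 1 of 8 tested fell in each and none rose.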

Additional observations from a re-analysis of the deposited data

How the results depend on the processing

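The number of genes that met the limits depended on the limits. It was 70 as reported, 24 with at most 5 WT counts, 331 with at most 20, 13 with at least 20 counts in each R6/1 library, 395 with at least 5 and 18 with counts scaled to the smallest library. It was 75 with the left-out names kept, 139 to 225 when any 1 library was left out and 804 without WT replicates 1 and 2, an alternative chosen after seeing the data because of their choroid plexus markers. These numbers grow when a library is left out because the limits on raw sums are then easier to meet. The mirrored selection took 42 rows, 86 with at least 7 counts in each WT library, 65 with scaled counts and 52 to 229 with 1 library left out. The median log2 ratio of the 70 genes was 1.81, 2.12 with a pseudocount of 0.01 CPM, 0.68 with 0.5 CPM and 1.76 to 1.97 with 1 library left out. The limits of the selection fix its direction.

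edgeR called 3882 genes, and 1088 to 4853 with 1 library left out. It called 2517 without WT replicate 3, 1152 without R6/1 replicate 1 and 1088 without R6/1 replicate 2. It called 19 of the 70 genes, 38 with no filter on low counts and 4 to 25 with 1 library left out, with 8 without R6/1 replicate 1 and 4 without R6/1 replicate 2. Leaving out an R6/1 library leaves 1 library in that group, which is then assumed to vary like WT. Sfmbt2 and Cdca2 kept an edgeR or DESeq2 adjusted p below 0.05 under all 10 alternatives. The planned share of CpG-rich promoters was not run, because 33 of 70 genes had a promoter in the table. No paired analysis was possible because the labels give no replicate numbers that link WT and R6/1 libraries. Depth limits most values: a gene with 20 to 50 counts over 2 libraries has a wide counting interval, and absence from WT could not be told apart from a level below about 3 counts.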
